A study of Mus musculus with 2 samples.

Results

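Collagens are the fibre- and sheet-forming proteins of the extracellular matrix, and each is a helical trimer of alpha chains encoded by separate genes. The chains described here are all rows of a mouse read count table whose symbol is Col, a type number, a and a chain number, which gave 44 of the 24061 genes. Of these, 38 had at least 20 counts summed over both libraries and were measured: 11 of 11 fibrillar chains, 4 of 6 chains of type IV, the basement membrane collagen, and 23 of 27 chains of other types. The material was embryonic stem cells of the C57BL/6 strain, kept on mouse embryonic fibroblast feeders with leukaemia inhibitory factor, and the labels do not say whether feeders were taken off before RNA was made. One library is labelled control (passages 17 to 23). The other is labelled Pc4-OE (passages 24 to 37), for overexpression of the transcriptional coactivator Pc4 from a Venus-marked lentivirus. The design text speaks of 3 such lines without saying which of them was sequenced. With 1 library per group there is no replicate check and no test, and group and passage cannot be told apart.

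Fibrillar chains (types I, II, III, V, XI, XXIV and XXVII) assemble into the banded fibres of connective tissue, and fibroblasts are a main source of types I, III and V. Type IV chains form the sheet-like network of basement membranes, on which epithelia rest from early embryos onward. The remaining types include beaded filaments (VI), chains bound to fibril surfaces (IX, XII, XIV, XVI, XIX, XX and XXII, called FACITs), the basement membrane zone multiplexins XV and XVIII, transmembrane chains (XIII, XVII, XXIII and XXV), the short-chain network collagens VIII and X, the anchoring fibril collagen VII, and types XXVI and XXVIII.

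Levels are given in CPM, the read counts divided by the TMM-normalised library size and multiplied by 1000000, and each log2 ratio sets the library labelled Pc4-OE over the library labelled control. Where a pair of values follows a gene, the first belongs to the library labelled control and the second to the library labelled Pc4-OE. The 2-fold rule asks for a ratio of 2 or more in either direction with a 95% interval that leaves out 1, and that interval covers counting error alone. Total counts were 10571463 and 10194783.

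Sub1, which encodes Pc4, had 5522 and 2432 counts (530.3 and 235 CPM), so it was 2.26-fold lower (2.15 to 2.37) where the label says overexpression. Since this goes against the label, directions below are those of the labels only. Whether the labels were exchanged, in which case each direction would turn, and whether reads of the transgene were counted under Sub1 was not tested. The 10 pluripotency markers summed to 6130 and 4935 CPM. Of these, 0 met the rule, which 11.8% of all measured genes met as higher and 4.02% as lower. Their intervals lay wholly below 1 for 5 of the 10 and wholly above it for 3. Markers of fibroblasts and of macrophages were more abundant in the library labelled Pc4-OE. All 16 fibroblast markers (collagens not among them) had a ratio above 1, against 49.3% of all measured genes, with sums of 2304 and 7140 CPM. Of 12 macrophage markers, 11 met the rule as higher, against 11.8% of those genes, with sums of 210.03 and 541 CPM. In bulk RNA, fewer cells of a type and less RNA per cell cannot be told apart.

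Collagen transcripts were more abundant in the library labelled Pc4-OE. All chains together took 0.467% of the reads in the library labelled control (Wilson interval 0.463% to 0.471%) and 1.05% in the one labelled Pc4-OE (1.04% to 1.05%). Of the 38 measured chains, 17 met the 2-fold rule as higher, against 11.8% of the 14213 genes measured, and 2 met it as lower, against 4.02% of those genes. The other 19 met it in neither direction. A ratio above 1 was found for 32 of the 38, against 49.3% of all genes, and an interval wholly above 1 for 25, against 31.2%. The median log2 ratio of the chains was 0.92, that of all measured genes was -0.01, and that of the fibroblast markers was 1.64. Only 6 of the 38 chains lay above the fibroblast marker median. The part of the fibroblast and macrophage RNA in these differences was not tested.

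**Figure D1:**
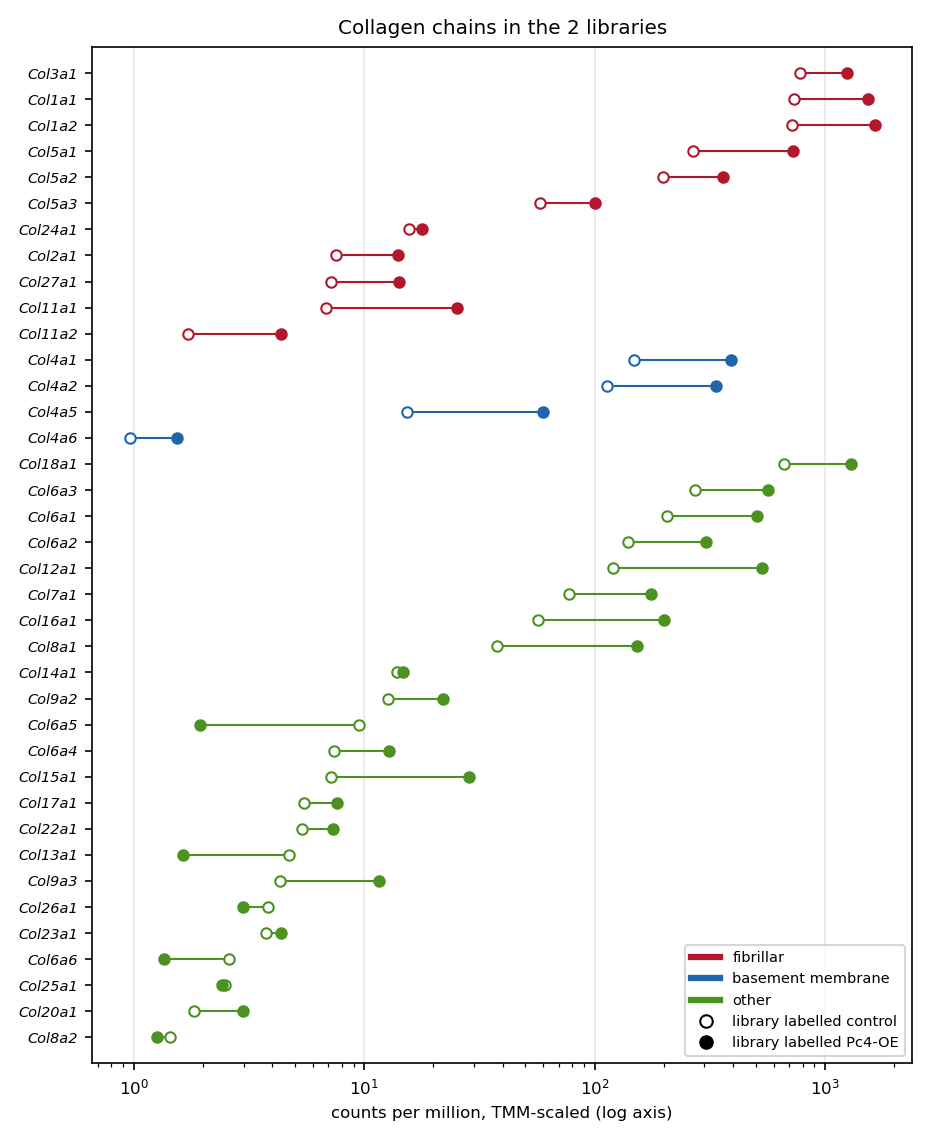
TMM-scaled CPM (log axis) of the 38 measured collagen chains in the library labelled control (open points) and the library labelled Pc4-OE (filled points), grouped by type, 1 library each and so without error bars. Filled points lie to the right of open points for all 11 fibrillar and all 4 type IV chains, whereas Col6a5 and Col13a1 lie furthest in the opposite direction.

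The stretches upstream of 3 chains are shown to set unlike promoters beside unlike ratios: Col3a1, a fibrillar chain short of the 2-fold rule, Col7a1, the anchoring fibril chain, and Col8a1, a network chain with one of the largest excesses. Each is the 120 bases before the start in the RefSeq promoter table (GRCm38.p6), 5′ to 3′ on the strand of the gene. None overlaps an exon of the GENCODE annotation or the RefSeq span of its own gene. Capitals mark GGGCGG (the GC box) or TATAAA (the TATA box) on either strand. The positions are chr1:45311418-45311537 (plus strand), chr9:108953466-108953585 (plus) and chr16:57754738-57754857 (minus).
Col3a1: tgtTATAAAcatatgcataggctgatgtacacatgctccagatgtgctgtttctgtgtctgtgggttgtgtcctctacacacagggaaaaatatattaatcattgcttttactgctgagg
Col7a1: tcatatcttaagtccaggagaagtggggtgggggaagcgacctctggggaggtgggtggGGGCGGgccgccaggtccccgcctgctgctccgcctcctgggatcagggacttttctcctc
Col8a1: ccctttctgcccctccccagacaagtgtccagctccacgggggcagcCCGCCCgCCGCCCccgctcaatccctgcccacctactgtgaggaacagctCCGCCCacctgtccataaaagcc
Col8a1 has 3 GC box matches in this stretch, beginning 73, 66 and 23 bases before the start, and Col7a1 has 1, beginning 61 bases before it. Col3a1 has a TATAAA match that begins 117 bases before the start. The 3 chains were picked by hand. Col8a2, whose ratio was below 1, has GGGCGG matches beginning 93, 41, 19 and 15 bases before its start. Promoter windows of 250 bases before to 50 after a start were found for 30 of the 38 measured chains, 32 windows in all. On either strand GGGCGG stood in 23 of the 32 (71.9%), against 35.7% of all 32851 windows of that length, and CCAAT in 12 (37.5%), against 37.4%. TATAAA stood in 4 (12.5%), against 13.6%, and TGANTCA, the AP-1 motif, in 1 (3.13%), against 7.81%. None of these motifs contains another. The chain windows belong to measured genes only, whereas the 32851 windows were not limited by counts, so the 2 sets are unlike. The windows of Col4a1 and Col4a2 overlap and share a GGGCGG match, and those of Col6a2 overlap too. Of the chains lower by the 2-fold rule, Col6a5 had GGGCGG in its window and Col13a1 did not, and it also stood in windows of Col6a6, Col8a2 and Col25a1, whose ratios were below 1. A match is a description of the letters only.

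All 11 fibrillar chains were more abundant in the library labelled Pc4-OE, with intervals above 1 for 10. The 2-fold rule was met as higher by 5 of the 11, against 11.8% of all measured genes. The median log2 ratio of the fibrillar chains was 0.97 and their range 0.19 to 1.89. The type I chains are the bulk of the fibres of skin, bone and tendon. Col1a1 (51 exons, chromosome 11, 94936224 to 94953042) had 7627 and 15896 counts, 2.10-fold higher (2.04 to 2.16). Its partner Col1a2 (52 exons, chromosome 6, 4505618 to 4541543) had 7495 and 17019 counts, 719.8 and 1644 CPM, 2.28-fold higher (2.22 to 2.35).

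Col3a1, whose homotrimers form thin fibres with type I, and Col5a2, a type V chain, lie next to each other on chromosome 1 (45311538 to 45349706 and 45374331 to 45503282). Both stayed short of 2-fold. Col3a1 had 781 and 1246 CPM, a ratio of 1.59 (1.55 to 1.64), and Col5a2 had 198.8 and 361 CPM, a ratio of 1.82 (1.72 to 1.92). Col5a1, the chain that pairs with Col5a2 and helps to start type I fibrils, was 2.71-fold higher (2.59 to 2.83), from 268.7 to 727 CPM. Col5a3, the third type V chain, had a ratio of 1.74 (1.57 to 1.92), from 57.8 to 100.4 CPM. The largest ratio among the fibrillar chains was that of Col11a1, a chain of cartilage fibrils, with 71 and 262 counts, 3.71-fold higher (2.85 to 4.90). Col11a2 had 18 and 45 counts and was 2.52-fold higher, with an interval from 1.43 to 4.62.

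Col2a1, the main chain of cartilage, had 79 and 145 counts, a ratio of 1.85 (1.39 to 2.46). Col27a1 had 75 and 146 counts and a log2 ratio of 0.97, which passed 2-fold when library totals replaced TMM (1.01). Col24a1 had 163 and 185 counts, and its interval of 0.920 to 1.42 includes 1. Of the chondrocyte genes that accompany Col2a1 and type XI in cartilage, Acan, the large cartilage proteoglycan, had a log2 ratio of -0.34 and Sox9, the cartilage transcription factor, one of 0.66, and Comp had 10 and 7 counts. Matn1, a cartilage matrix protein, met the rule as higher on 15 and 36 counts, and Hapln1 had no count in either library. The chondrocyte list summed to 43.2 and 41.9 CPM.

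Type IV chains had the highest median of the compared types, 1.49, over only 4 measured chains. Of these, 3 met the rule as higher, against 11.8% of all measured genes, and 0 as lower, against 4.02%. Col4a1 and Col4a2, which form the common type IV trimer, had 1537 and 4057 counts and 1184 and 3498 counts. Col4a1 was 2.66-fold higher (2.504 to 2.82) and Col4a2 2.97-fold (2.78 to 3.18). These genes are transcribed away from each other on chromosome 8: in RefSeq, Col4a2 begins at 11312805 on the plus strand and Col4a1 at 11312889 on the minus strand, so the spans overlap by 85 bases. The library kit was a stranded one, but the strand setting of the read counting is not given in the sources used here.

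Col4a5 and Col4a6 are likewise arranged head to head, on chromosome X, with RefSeq starts 1275 bases apart. Col4a5 had 160 and 617 counts, 3.88-fold higher (3.26 to 4.65). Col4a6 had 10 and 16 counts, too few to place its ratio (0.687 to 3.97). The count ratio of Col4a5 to Col4a6 was 2.41 times as large in the library labelled Pc4-OE, with an interval of 0.957 to 5.77, so a difference between these neighbours was not detectable at this depth. Col4a3 and Col4a4, the pair found in kidney glomeruli, had 1 and 4 and 2 and 3 counts and fell below the count minimum. Markers of endoderm, an early tissue rich in type IV collagen and laminin, had a median of 0.65 over 10 measured genes. The rule was met by 4 of them as higher, against 11.8% of all measured genes, and by 1 as lower, against 4.02%. The 4 were Thbd, the thrombin receptor thrombomodulin (4.51-fold), Dab2, an endocytic adaptor (3.84-fold), the laminin chain gene Lamb1 (2.45-fold) and Gata4, a transcription factor (23 and 46 counts), and the lower gene was Hnf4a, a nuclear receptor (70 and 33 counts). Adding 0.5 CPM to both libraries ended the call of Hnf4a. With intervals widened by an assumed coefficient of variation of 0.4, neither Lamb1 nor Hnf4a met the rule. Gata4, at a ratio of 2.01 (1.19 to 3.48), was not followed through these alternatives. By contrast, Lama1 and Lamc1, the partners of Lamb1 in the trimer, had log2 ratios of 0.19 and -0.29. Among the other endoderm transcription factors listed, Gata6 (39 and 55 counts), Sox17 (2 and 9) and Foxa2 (1 and 4) were low in both libraries, as was the gene Afp (1 and 1). Sox7, also of that list, had 57 and 98 counts and a log2 ratio of 0.79 (0.31 to 1.29).

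**Figure D2:**
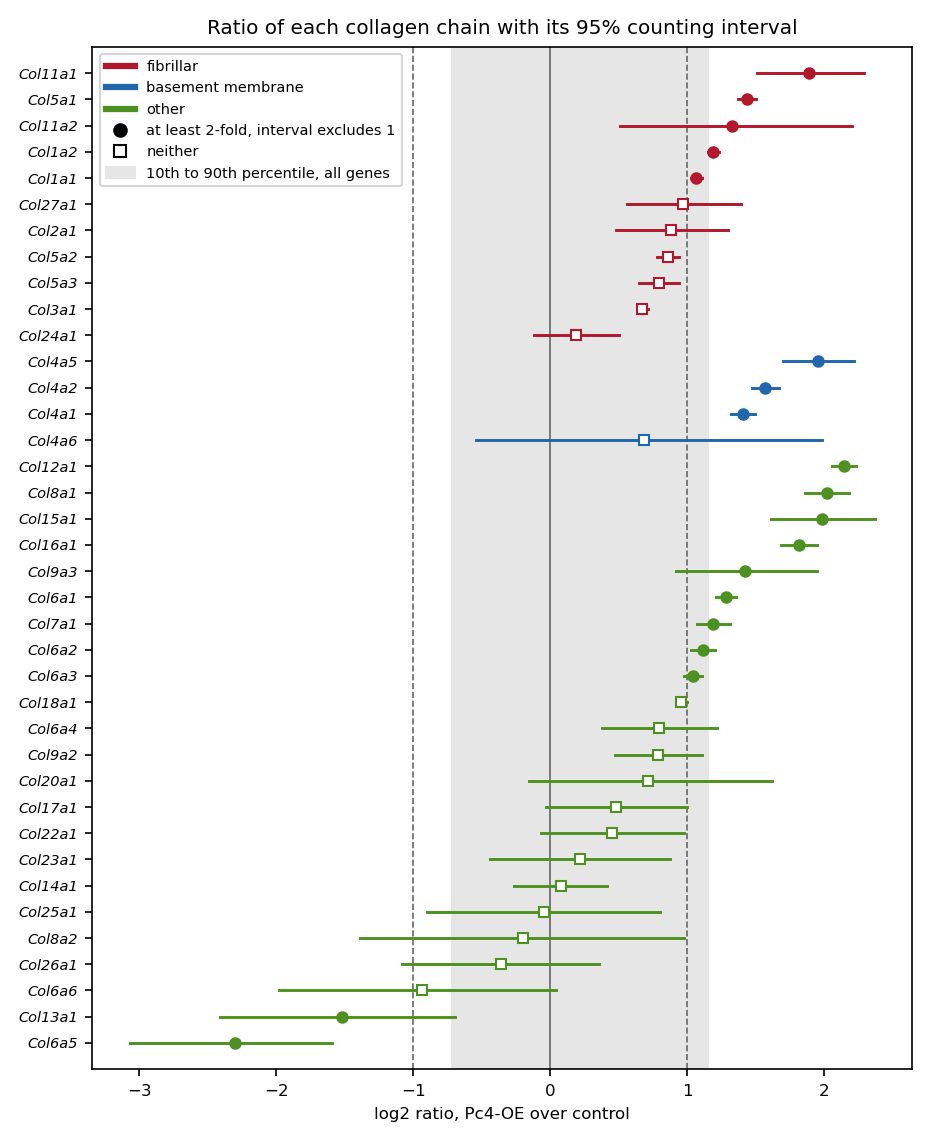
Log2 ratio (Pc4-OE over control) of each measured collagen chain with its 95% counting interval, grouped by type. Filled circles met the 2-fold rule, open squares did not, dashed lines mark 2-fold, and the grey band spans the 10th to 90th percentile of all measured genes (-0.71 to 1.15). Fibrillar points run from 0.19 to 1.89, type IV points from 0.69 to 1.956 and other chains from -2.30 to 2.15.

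The other types had the widest range of log2 ratios, -2.30 to 2.15. They also had the most measured chains, 23 against 11 and 4, some on few counts, such as Col8a2 with 28 in sum. The 2-fold rule was met as higher by 9 of the 23, against 11.8% of all measured genes, and as lower by 2, against 4.02%. It was met in neither direction by 12, and the median of the 23 was 0.79. The 4 largest ratios among the 23 belonged to fibril-surface, network and basement membrane zone chains. Col12a1, a FACIT that coats type I fibrils, had 1248 and 5493 counts, 119.9 and 531 CPM, 4.43-fold higher (4.16 to 4.71). Col8a1, a network collagen of vessels and the cornea, had 391 and 1575 counts and was 4.05-fold higher (3.63 to 4.54). Col15a1, a multiplexin, had 75 and 295 counts, 3.96-fold higher (3.06 to 5.17), and Col16a1, a FACIT, had 591 and 2070 counts, 3.52-fold higher (3.21 to 3.87). Each of these intervals lies above those of Col1a1 and Col1a2.

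Among the FACITs, 3 of 7 measured chains met the rule as higher, against 11.8% of all measured genes, and 0 as lower, against 4.02%. Col9a3 had 45 and 120 counts, 2.68-fold higher (1.89 to 3.87), although 7.68% of its exonic bases are overlapped by Tcfl5 on the other strand. Col9a2 had 132 and 227 counts, a ratio of 1.73 (1.39 to 2.16), and Col9a1, with 1 count in each library, was not measured. Col14a1, which like Col12a1 binds fibril surfaces, had 145 and 152 counts, a log2 ratio of 0.08 (-0.26 to 0.42). Col14a1 lies on chromosome 15 (55307644 to 55520803) among genes with lower levels. The 10 measured genes on either side of it, leaving out collagens, had a median log2 ratio of -0.59, the lowest for any measured chain. Col22a1, further along that chromosome, had a log2 ratio of 0.45 with neighbours at -0.12, and Col20a1, with 19 and 31 counts, had 0.72 (-0.15 to 1.62).

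Type VI, a filament in the matrix around cells, held chains with unlike ratios. The classical chains Col6a1, Col6a2 and Col6a3 were all higher: Col6a1 had 2157 and 5227 counts, 2.44-fold (2.32 to 2.56), Col6a2 1458 and 3140 counts, 2.17-fold (2.04 to 2.31), and Col6a3 2848 and 5828 counts, 2.06-fold (1.97 to 2.15). The chains Col6a4, Col6a5 and Col6a6, which can take the place of Col6a3 in the trimer, lie side by side on chromosome 9 and had ratios on both sides of 1. Col6a5 (105856070 to 105962463) had 99 and 20 counts, 4.92-fold lower (3.02 to 8.40). Col6a6 had 27 and 14 counts, a log2 ratio of -0.94 whose interval of -1.98 to 0.04 includes 0. Col6a4 had 77 and 133 counts, a ratio of 1.74 (1.303 to 2.33). The 10 measured non-collagen genes on either side of Col6a5 had a median log2 ratio of -0.14, against -2.30 for Col6a5 itself. Of the exonic bases of Col6a4, 3.92% are overlapped by Gm36993 and Gm47575 on the other strand.

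The transmembrane chains were rare, with a summed level of 16.4 and 16.04 CPM. Of the 4, 0 met the rule as higher, against 11.8% of all measured genes, and 1 as lower, against 4.02%. So few chains cannot set the class apart from all genes. Col13a1, a transmembrane chain of adhesion sites and the neuromuscular junction, had 49 and 17 counts, 2.86-fold lower (1.62 to 5.31). Col17a1, the hemidesmosome collagen of skin, had 57 and 79 counts and a log2 ratio of 0.48 (-0.03 to 0.997). Col23a1 had 39 and 45 counts and Col25a1 26 and 25, and both intervals include a ratio of 1. Col7a1, which anchors epidermal basement membrane, had 803 and 1820 counts, 2.28-fold higher (2.10 to 2.48). The keratinocyte markers that accompany types VII and XVII in skin were nearly absent, at 0.288 and 0.966 CPM in sum over 5 genes.

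Col18a1, the multiplexin whose fragment is endostatin, was among the most abundant chains: it had 6932 and 13381 counts, a ratio of 1.94 (1.89 to 1.9995) just short of the rule, which it met with library totals. Types VIII, XV and XVIII are also vessel collagens. Of the endothelial markers 0 of 4 measured met the rule, against 11.8% of all measured genes as higher and 4.02% as lower. A ratio above 1 was found for 3 of the 4, against 49.3% of all genes, and the list median was 0.35. Pecam1, an endothelial adhesion molecule, was the only measured one below 1, with a log2 ratio of -0.42. Tek (116 and 126 counts) had 0.13 and Tie1 (23 and 34 counts) 0.57, and both intervals include a ratio of 1. Cdh5, the endothelial cadherin, had 6 and 16 counts and met the rule as higher with library totals and with DESeq2 size factors. Emcn had no count in either library. Col26a1 had 40 and 31 counts, a log2 ratio of -0.36 (-1.08 to 0.35), and lies on chromosome 5 with neighbours at -0.38. The highest neighbour median was 0.53, around Col2a1, then 0.30 around Col4a5 and Col4a6. Col8a2, the partner of Col8a1, had 15 and 13 counts. The count minimum left out 6 chains with 7 counts or fewer in sum, the nearest to it being Col10a1 (2 and 5) and Col28a1 (1 and 6). Just inside it were Col4a6 with 26 counts and Col8a2 with 28.

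Levels of different genes were compared only per kilobase of their longest transcript, and 4 chains stood above the rest in both libraries. In the library labelled control they were Col3a1 at 140.4 CPM per kilobase, Col1a2 at 134.6, Col1a1 at 123.5 and Col18a1 at 119.0. In the library labelled Pc4-OE the order was Col1a2 at 307.5 CPM per kilobase, Col1a1 at 259, Col18a1 at 231 and Col3a1 at 223.9. Col6a1 and Col5a1 came next in both, Col6a1 at 50.5 and 123.2 and Col5a1 at 32.0 and 86.5 CPM per kilobase. Col3a1 ranked 1 and 4, Col11a1 30 and 21 and Col6a5 26 and 37 of the 38 chains.

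**Figure D3:**
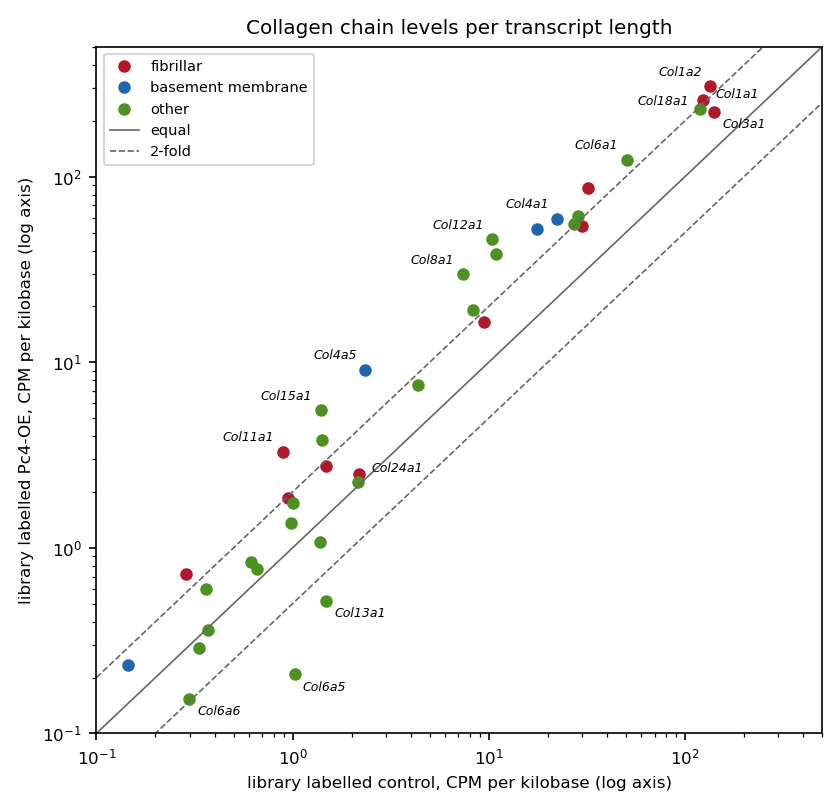
CPM per kilobase of transcript in the library labelled control (horizontal) and the library labelled Pc4-OE (vertical), both on log axes, 1 point per measured chain coloured by type. The solid line marks equal levels and the dashed lines 2-fold, and no error is drawn. Of the 38 points, 32 lie above the line of equality, and Col6a5 and Col13a1 lie farthest below it.

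Summed by type, type IV and the other types took a larger share of the collagen reads in the library labelled Pc4-OE, and fibrillar chains a smaller one. Fibrillar chains held 59.0% of the reads of the measured chains in the library labelled control (Wilson interval 58.6% to 59.5%) and 55.1% in the one labelled Pc4-OE (54.8% to 55.4%). Type IV went from 5.86% (5.65% to 6.07%) to 7.66% (7.50% to 7.82%), and the other types from 35.1% (34.7% to 35.5%) to 37.2% (37.0% to 37.5%). Within the types the shares did not all move alike. Among fibrillar chains Col3a1 went from 16.5% to 12.1% of collagen reads and Col1a1 from 15.5% to 14.9%. Col1a2 went from 15.2% to 15.9% and Col5a1 from 5.67% to 7.04%. Among the other types FACITs went from 4.53% to 7.64%, with Col12a1 from 2.53% to 5.14%. Multiplexins went from 14.2% to 12.8%, transmembrane chains from 0.346% to 0.155% and type VI from 13.5% to 13.4%. These intervals cover counting error alone, and reads are not independent molecules.

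Ratios between chains do not depend on how the libraries are scaled. Col1a1 to Col1a2 per kilobase was 0.918 and 0.842, so it was 0.918 times as large in the library labelled Pc4-OE (0.883 to 0.954). The protein trimer holds more Col1a1 than Col1a2 chains. Col4a1 to Col4a2 was 1.27 and 1.13, 0.893 times as large (0.817 to 0.977). Col6a1 to Col6a2 was 1.77 and 1.99, 1.13 times as large (1.04 to 1.22). Each of these intervals leaves out 1. Col5a1 to Col5a2 was 1.07 and 1.59, 1.49 times as large (1.39 to 1.60). Col3a1 to Col1a1 was 0.760 times as large (0.731 to 0.791) and Col12a1 to Col1a1 2.11 times (1.97 to 2.26). Col8a1 to Col8a2 was 22.1 and 102.7, 4.65 times as large (2.04 to 10.7), on 13 counts of Col8a2 in the library labelled Pc4-OE. Col6a5 to Col6a3 was 0.0987 times as large (0.0577 to 0.161).

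Collagen chains are hydroxylated, folded and glycosylated in the endoplasmic reticulum before secretion. Of 17 measured genes for these steps, 6 met the rule as higher, against 11.8% of all measured genes, and 0 as lower, against 4.02%. A ratio above 1 was found for 16, against 49.3% of all genes, and the median was 0.50, below that of the chains. The prolyl 4-hydroxylase subunit genes P4ha2 (753 and 2058 counts, 2.75-fold, 2.53 to 2.99) and P4ha3 (56 and 164 counts, 2.95-fold, 2.16 to 4.07) were higher. So were the prolyl 3-hydroxylase family genes Leprel2 (240 and 670 counts, 2.81-fold) and Leprel4 (193 and 404 counts, 2.11-fold). None of these 4 met the rule with intervals widened by an assumed coefficient of variation of 0.4. The summed level of the list was 2276 and 2996 CPM.

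After secretion, propeptides are cut off and lysyl oxidases cross-link the fibres. Among 14 measured genes of these steps, 8 met the rule as higher, against 11.8% of all measured genes, and 0 as lower, against 4.02%. The median log2 ratio was 1.15. A ratio above 1 was found for 12, against 49.3% of all genes. The other 2 had a ratio below 1, and 1 of these had its interval wholly below 1. Lox, a lysyl oxidase, had 1686 and 9039 counts, 5.39-fold higher (5.12 to 5.69), a larger excess than that of any collagen chain. Its relative Loxl1 was 3.12-fold higher (2.76 to 3.54). Adamts2, which removes the amino-terminal propeptide, had 174 and 659 counts, 3.81-fold higher (3.22 to 4.53), and Bmp1, which removes the carboxy-terminal one, 753 and 2045 counts, 2.73-fold (2.51 to 2.97).

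For proteins that bind collagen fibrils 9 genes were measured, and their median of 1.70 was above that of every chain type. Of the 9, 7 met the rule as higher, against 11.8% of all measured genes, and 0 as lower, against 4.02%. Thbs1, a matricellular adhesion protein, was 4.84-fold higher (492 and 2382 CPM), its relative Thbs2 3.31-fold (243 and 805 CPM), the fibril-spacing proteoglycan Dcn 3.68-fold (319 and 1173 CPM) and Dpt, a small fibril-binding protein, 3.84-fold (20.0 and 76.7 CPM). The 8 measured receptor genes had a median of 0.81, and 3 met the rule as higher, against 11.8% of all measured genes. As lower 0 met it, against 4.02%. The collagen-activated kinase Ddr2 was 3.71-fold higher (511 and 1885 counts), the collagen uptake receptor Mrc2 3.61-fold (701 and 2512 counts) and the fibroblast integrin subunit Itga11 3.84-fold (81 and 309 counts). Itgb1, the shared beta subunit, had a log2 ratio of 0.90 (0.84 to 0.96).

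The fibroblast markers had a higher median (1.64) than the chains of any type. Of the 16, 14 met the rule as higher, against 11.8% of all measured genes, and 0 as lower, against 4.02%. Fbln2, a matrix glycoprotein, was 5.31-fold higher (287 and 1526 CPM), Acta2, smooth muscle actin, 5.81-fold (10.7 and 61.9 CPM), Mmp2, a gelatinase, 4.16-fold (174.6 and 726 CPM) and Pdgfra, a growth factor receptor, 3.92-fold (80.3 and 314 CPM). The macrophage markers Lyz2 (426 and 2133 counts, 5.04-fold), C1qa (11 and 94 counts), C1qc (8 and 102 counts) and Tyrobp (12 and 124 counts) were higher too, and the median of that list was 2.31. Pou5f1, Tdgf1, Utf1 and Sall4, the pluripotency genes farthest from a ratio of 1, had log2 ratios of -0.93, -0.69, -0.49 and -0.45. Of the 10 pluripotency markers, 4 had a ratio above 1, with log2 ratios of 0.24 for Nanog, 0.22 for Klf4, 0.07 for Dppa5a and 0.03 for Esrrb. Sox2 had a log2 ratio of -0.02 (-0.07 to 0.04) and Zfp42 one of -0.25.

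**Figure D4:**
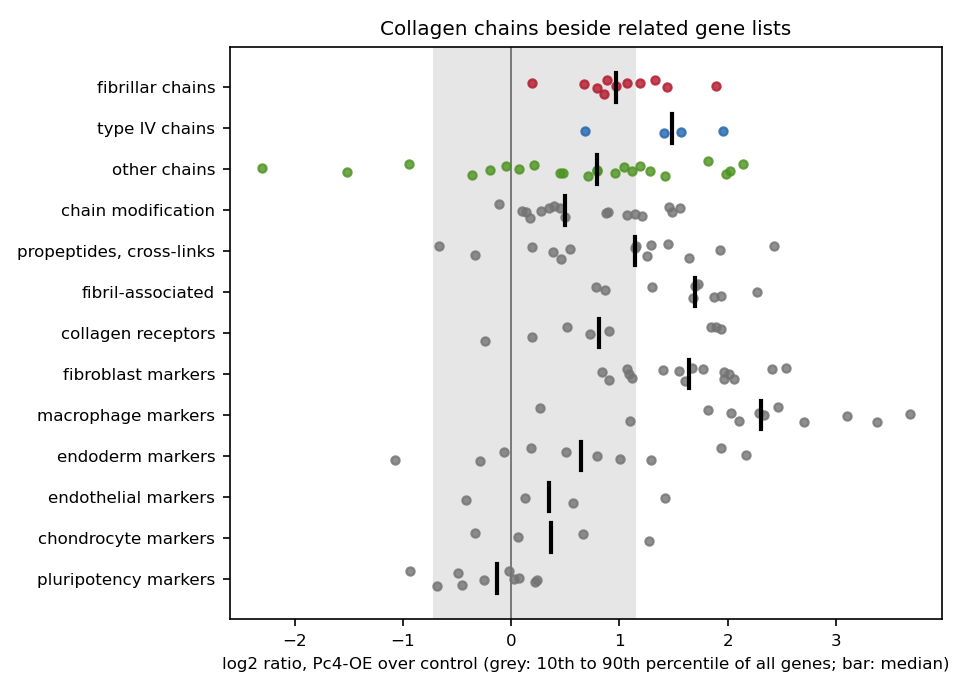
Log2 ratio (Pc4-OE over control) of every measured gene in each collagen type and each related list, 1 point per gene, with a bar at the median of the list and a grey band from the 10th to the 90th percentile of all measured genes. The medians are 0.97 for fibrillar, 1.49 for type IV and 0.79 for other chains, beside 1.70 for fibril-associated genes, 1.64 for fibroblast markers and -0.13 for pluripotency markers.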

How the data were processed

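The authors deposited a table of raw read counts, with a row for each gene and a column for each library. Per the submitters' processing notes, STAR 2.4.1c and featureCounts were used with build mm10. The annotation, the strand setting and the handling of multi-mapping reads: none is given in the sources used here. Per the labels' protocols, the kit was TruSeq stranded mRNA.

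From these counts, CPM were computed on effective library sizes (trimmed mean of M values, edgeR 4.0.16, over every row). TMM over only the rows with 20 or more counts was run first, and both outputs had been seen when all rows were chosen. Ratios carry no pseudocount and cover the 14213 genes with 20 or more counts in sum. Intervals of ratios are exact binomial ones (Clopper-Pearson, scipy 1.17.1), those of changes between chain ratios exact conditional ones, and those of shares Wilson intervals. For a ratio of 1 in equal libraries the bounds were 0.374 and 2.68 at 20 counts in sum, and 0.882 and 1.13 at 1000. Positions are from RefSeq (GRCm38.p6, the assembly of mm10), matched by ID for 99.7% of rows, and lengths and exon numbers from the longest GENCODE transcript.

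On counts simulated with counting error alone (14219 genes), the rule called 100% of 50 genes at 2.5-fold in the right direction and 0% at 1.5-fold. It called 0.314% of 14019 unchanged genes. The changed genes were drawn only from genes with more counts than Col11a2, Col13a1, Col6a5 and Col9a3 (63, 66, 119 and 165 in sum). The 100% therefore does not cover such chains. The intervals held the true ratio for 95.9% of unchanged genes, and for 100%, 90%, 94% and 96% of 50 genes each at 1.5-, 2.5-, 4- and 8-fold. The limit set for this check was loosened after the 90% had missed it.

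Members, the 11 other lists and the rules were chosen with earlier results of these data known. Any measured chain may be named, and of each other list the 4 measured members whose interval bound nearest to a ratio of 1 lay farthest from it. Comp, Lama1, Lamc1, Gata6, Sox17, Foxa2, Sox7, Afp, Gata4, Emcn, Hapln1, Nanog, Klf4, Dppa5a, Esrrb, Sox2 and Zfp42 are outside that rule and were chosen after their values were seen. The chains Col4a3, Col4a4, Col9a1, Col10a1 and Col28a1, which fell below the count minimum, are also named outside that rule. The alternatives tried are given in the closing section.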

Additional observations from a re-analysis of the deposited data

How the results depend on the processing

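The alternatives were library totals, DESeq2 size factors, a pseudocount of 0.5 CPM, a count minimum of 100 or of 1 (with a floor of 3 counts), an interval widened by an assumed coefficient of variation of 0.4, other members of the fibrillar and basement membrane types, and, added after seeing the data, TMM over rows with 20 or more counts. Over these the median log2 ratio of all measured chains lay between 0.89 and 1.07. The added TMM setting gave 17 higher and 2 lower chains and a median of 0.94. Library totals gave 19 higher chains, adding Col27a1 and Col18a1, and moved 5 of the 79 single genes followed beyond their counting interval, with 0 reversed. With the minimum of 100, 1 chain was lower, among the other types, since Col13a1 was no longer tested. With the widened interval 6 chains were higher (1 fibrillar, 1 of type IV, 4 of other types) and 1 lower, of the other types. The chains that then lost their call were Col1a1, Col1a2, Col4a1, Col4a2, Col5a1, Col6a1, Col6a2, Col6a3, Col7a1, Col9a3, Col11a2 and Col13a1. Of the other single genes followed, P4ha2, P4ha3, Leprel2, Leprel4, Bmp1, Lamb1, Matn1, Hnf4a and Sub1 lost theirs. Gata4 was not among the genes followed. With that interval, 597 of all genes were higher and 96 lower. Cdh5 met the rule as higher with library totals, DESeq2 size factors and the added TMM setting, and Hnf4a did not meet it with the pseudocount either. With types XV and XVIII in the basement membrane type, 4 of 6 chains were higher and the median was 1.49. Per kilobase, the fibrillar share was 59.6% and 56.0%, that of type IV 5.32% and 7.07% and that of the other types 35.1% and 36.9%. With 1 library a group, no setting shows the spread between cultures. No paired analysis was possible because each group has 1 library.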
